A study of Mus musculus with 6 samples.

Results

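Mir6236 is annotated as a miRNA gene, and it was examined here together with 9 loci that are annotated as rRNA genes or named as collecting reads of ribosomal RNA, in small RNA libraries of regulatory T (Treg) cells. The 10 genes were Mir6236, Lars2, Gm42418, Gm26917 and 6 genes of rRNA biotype, namely Gm24601, Gm25164, n-R5s2, n-R5s194, n-R5s136 and n-R5s29. They were found by Ensembl identifier through GENCODE vM21 symbols among the 54547 gene identifiers in the count tables, and they were selected on their counts and their differences between genotypes in these same libraries. Levels by genotype are therefore a description, without a test. Small RNA was sequenced from 3 WT and 3 miR-181a/b-1-/- samples (written KO in the plots), in which the miR-181a-1 and miR-181b-1 genes are deleted. The labels give the strain as C5BL6/N, the age as 7 weeks and the tissue as thymus for both genotypes, and no treatment. Each sample was 1 sort of 100000 Treg cells from 3 pooled thymi, so a library is the mean of several animals. The study's results text calls these cells peripheral, whereas its methods and the labels name the thymus.

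Ribosomal RNA makes up most of the RNA of a cell. The 18S, 5.8S and 28S rRNAs are cut from a single precursor transcribed from tandem repeats, while 5S rRNA is transcribed separately from its own cluster of repeats and from many dispersed copies and pseudogenes. A library for small RNA takes up fragments of these molecules unless they are removed, and some of the fragments that escape removal can be counted at annotated loci that resemble rRNA. Mature miRNAs, in contrast, are cut from hairpin precursors and guide the silencing of mRNAs through their seed. The hairpin annotated as Mir6236 is known to begin with letters that resemble 28S rRNA, and no 28S sequence was compared here.

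The annotated sequences show which of the loci resemble each other. RefSeq places the mature miRNA at chr9:110281353-110281371 on the plus strand of GRCm38.p6, and GENCODE places the hairpin gene at chr9:110281287-110281409, where no other gene overlaps it. The mature sequence is shown with its seed, bases 2 to 8, in capitals, and none of the other 1737 mature mouse miRNAs in the RefSeq table has this seed.

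mmu-miR-6236: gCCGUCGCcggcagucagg

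The mature miRNA starts at base 67 of the hairpin of 123 bases.

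GENCODE vM21 lists 354 genes of rRNA biotype, and the commonest sequence among them is a 5S copy of 119 bases that 32 genes have letter for letter. The 5S-type genes n-R5s29 and Gm25164, which differ most from it, are shown, and capitals mark the bases that did not align to the same base in the common copy.

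n-R5s29: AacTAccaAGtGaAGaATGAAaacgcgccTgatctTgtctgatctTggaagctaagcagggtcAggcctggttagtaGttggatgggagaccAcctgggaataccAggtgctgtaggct
Gm25164: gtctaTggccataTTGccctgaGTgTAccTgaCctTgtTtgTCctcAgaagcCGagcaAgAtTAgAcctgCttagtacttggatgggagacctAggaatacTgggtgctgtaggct

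The copies ranged from nearly intact to strongly diverged. n-R5s136 (chr8:123599861-123599979, minus strand) was 99.2% identical to the common copy, n-R5s2 (chrX:6106891-6107009, plus strand) 96.6% and n-R5s194 (chr3:4338998-4339116, plus strand) 95.8%. n-R5s29 (chr17:78858934-78859052, plus strand) was 81.2% identical and Gm25164 (chr10:78518623-78518738, plus strand) 76.5%, gaps included.

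The sixth gene of rRNA biotype, Gm24601 (chr6:94826781-94826923, minus strand), is not a 5S gene by its letters. Its best local alignment to the annotated 5.8S gene n-R5-8s1 covered 129 columns with 78.3% identity, and the alignment to the common 5S copy only 26 columns. Capitals mark its 101 bases identical to the 5.8S gene.

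Gm24601: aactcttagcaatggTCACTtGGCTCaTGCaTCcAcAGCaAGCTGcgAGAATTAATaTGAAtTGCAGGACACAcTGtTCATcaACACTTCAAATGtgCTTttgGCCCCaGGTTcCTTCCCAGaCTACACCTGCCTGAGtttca

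Mir6236 shared no word of 20 bases with any of the other 9 genes on either strand, and none of 16 bases. Of its 104 words of 20 bases, 5 occurred in another annotated gene, none of them an rRNA gene. By contrast, 84 of the 100 words of n-R5s194, 81 of n-R5s136, 51 of n-R5s2 and 49 of n-R5s29 occurred in another gene, most of these genes being other 5S copies. HTSeq gives a read to no gene where the aligner reports several places for it. The words found in no other annotated gene numbered 16 for n-R5s194, 19 for n-R5s136, 49 for n-R5s2 and 51 for n-R5s29, and sequence outside annotated genes was not searched. Gm24601 shared no word of 20 bases with another gene and Gm25164 shared 11 of 97.

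**Figure D1:**
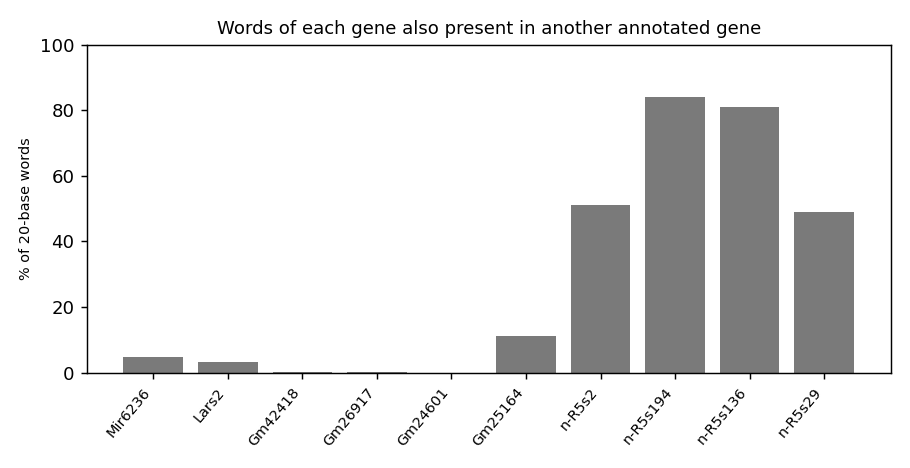
Percentage of the distinct 20-base words of each gene's annotated transcripts that also occur on the same strand of another GENCODE vM21 gene (vertical axis, %, from 0 to 100), 1 bar per gene. The bars of n-R5s194 (84%) and n-R5s136 (81%) stand highest, and that of Mir6236 is at 4.81%.

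The remaining loci are longer. Gm42418 (chr17:39846958-39848788, plus strand) is a lincRNA by biotype, but RefSeq lists the name as a synonym of Rn18s-rs5, a related sequence of 18S rRNA. GENCODE lists CT010467.1 and AY036118 on the opposite strand over 1822 and 923 of its 1831 bases, and both were at 0 counts in all 6 libraries. Gm26917 (chr17:39843013-39846341, plus strand) is a lincRNA gene just upstream of it, and its resemblance to rRNA was not examined here. Lars2 (chr9:123366927-123462666, plus strand) encodes the mitochondrial leucyl-tRNA synthetase, and its locus is also known to collect reads of the large rRNA. Among the 5S-type genes, n-R5s29 lies on the strand opposite to Eif2ak2, with 47 shared exon bases, and Eif2ak2 had 2 to 9 counts a library. Gm25164 lies in an intron of Olfr1358 and n-R5s136 opposite an intron of Gm20388, both at 0 counts in every library.

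The libraries held 168293 to 307840 counts on genes, and 75.7% to 80.3% of all records were given to no gene. Replicates of a genotype differed by more than counting noise (chi-square 3.00 to 7.37 times its degrees of freedom). The deleted genes could not be checked, since Mir181a-1 had 1 count in all 6 libraries together and Mir181b-1 had 0. The Treg markers Foxp3, Il2ra, Ctla4, Ikzf2 and Tnfrsf18 had 151 to 249 summed counts a library. Of the total, Ikzf2 had 591, Il2ra 246, Tnfrsf18 170.0 and Foxp3 149, whereas Ctla4 had 1 count in 1 library. Of markers of double-positive thymocytes, Rag1, Cd8a, Cd8b1 and Dntt gave 1 to 5 summed counts a library, and Rag2 and Ptcra were at 0. Of B cell markers, Ighm and Igkc gave 5 to 12, and Cd79a and Ms4a1 were at 0. The summed myeloid markers gave 0 to 1 (1 of 5 detected), and the 5 erythroid markers were at 0.

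All 10 genes passed the filter of 10 counts in at least 3 libraries. Levels below are normalized CPM, that is, counts on the 1391 genes that passed, scaled to a common total with TMM factors. They are shares of a library, so that fewer cells and less RNA per cell cannot be told apart in these bulk samples. The 10 genes together took 3.88% to 4.38% of the gene counts in WT libraries and 4.68% to 5.11% in miR-181a/b-1-/- libraries, and these ranges of raw shares did not overlap. As summed normalized CPM, however, the genotypes overlapped, with 42835 to 48109 in WT and 47484 to 64520.0 in miR-181a/b-1-/- libraries. Most of this was Gm42418, with 7395 to 14716 counts a library, and the 6 rRNA genes took 0.118% to 0.165%.

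Mir6236 had 64, 66 and 55 counts in WT libraries 1 to 3 and 74, 111 and 161 in miR-181a/b-1-/- libraries 1 to 3. As normalized CPM these were 319, 335 and 248 in WT and 446, 626 and 660.5 in miR-181a/b-1-/- samples. Every miR-181a/b-1-/- library thus lay above every WT library. The means were 301 ± 46.5 and 577 ± 115 (SD, n = 3), a log2 fold change of 0.95 with a standard error (SE) of 0.26. Across all genes tested, 3.24% had every miR-181a/b-1-/- library above every WT library.

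The miRNA table of the study holds Mir6236 among its 1241 features, so its weight among miRNA counts was also computed. Mir6236 made up 1.90%, 2.15% and 2.03% of the miRNA counts in WT libraries, and 4.08%, 8.17% and 4.70% in miR-181a/b-1-/- libraries. The widest 95% Wilson interval ran from 6.83% to 9.74%, for miR-181a/b-1-/- library 2, and intervals cover counting error only. That library also had the fewest miRNA counts (1359, against 1814 to 3422 in the others). With normalization over only the 23 miRNA features that passed the count filter, the log2 fold change was 1.37, higher than the 0.95 over all genes.

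Lars2 had 63, 75 and 62 counts in WT libraries and 70, 138 and 143 in miR-181a/b-1-/- libraries. Its normalized CPM was 314, 381 and 279 in WT and 422, 778 and 587 in miR-181a/b-1-/- samples. In normalized CPM the groups did not overlap, and Lars2 and Mir6236 were the only ones of the 10 genes for which this held. The log2 fold change was 0.88 (SE 0.27), with means of 325 ± 51.8 and 596 ± 178 (SD, n = 3).

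Gm42418, at the 18S-related locus, had 40182, 44084 and 45297 normalized CPM in WT and 44596, 51852 and 60369 in miR-181a/b-1-/- samples. miR-181a/b-1-/- libraries 2 and 3 were the highest, but with the TMM factors library 1 fell among the WT values. As raw shares of the gene counts, Gm42418, Lars2 and Gm26917 together took 3.73% to 4.22% in WT libraries, nearly all of it Gm42418. In miR-181a/b-1-/- libraries they took 4.49% to 4.89%, so these raw shares did not overlap. The log2 fold change of Gm42418 was 0.28 (SE 0.19), and 0.16 without miR-181a/b-1-/- library 3. Its neighbour Gm26917 had 712, 859 and 784 normalized CPM in WT and 585, 699 and 825 in miR-181a/b-1-/- samples, and a log2 fold change of -0.16 (SE 0.25). The lowest values of Gm26917 were those of miR-181a/b-1-/- libraries 1 and 2, and it was the only gene of the 10 with a negative fold change.

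Of the 6 rRNA genes, 5 were highest in the same library, miR-181a/b-1-/- library 3, which was the highest library for 20.4% of all genes tested. With library size alone, 4 were highest there, and n-R5s136 was instead highest in WT library 3 (261 against 255 CPM). n-R5s2 had 388, 574 and 541 normalized CPM in WT and 434, 412 and 734 in miR-181a/b-1-/- samples. n-R5s194 had 264, 198 and 279 in WT and 193, 242 and 414 in miR-181a/b-1-/- samples. n-R5s136 had 174, 229 and 257 in WT and 223, 158 and 291 in miR-181a/b-1-/- samples. In these 3 near-intact 5S copies, the other 2 miR-181a/b-1-/- libraries lay within or below the WT range. Their log2 fold changes were 0.08 (SE 0.28), 0.22 (SE 0.30) and 0.04 (SE 0.29), and without miR-181a/b-1-/- library 3 they turned to -0.25, -0.18 and -0.21.

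The diverged copies had fewer counts. Gm25164 had 139, 142 and 117 normalized CPM in WT and 169, 130 and 316 in miR-181a/b-1-/- samples, and its log2 fold change of 0.65 (SE 0.33) fell to 0.17 without miR-181a/b-1-/- library 3. n-R5s29 had 10, 4 and 10 counts in WT and 5, 13 and 22 in miR-181a/b-1-/- samples, with a log2 fold change of 0.78 (SE 0.44) that was 0.43 without miR-181a/b-1-/- library 3 and 0.48 without WT library 2. The groups overlapped for both genes. Gm24601, the 5.8S-like gene, was the exception to the pattern by library: it had 294, 249 and 261 normalized CPM in WT and 386, 395 and 234 in miR-181a/b-1-/- samples, so that library 3 was its lowest (log2 fold change 0.32, SE 0.27, and 0.54 without that library).

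**Figure D2:**
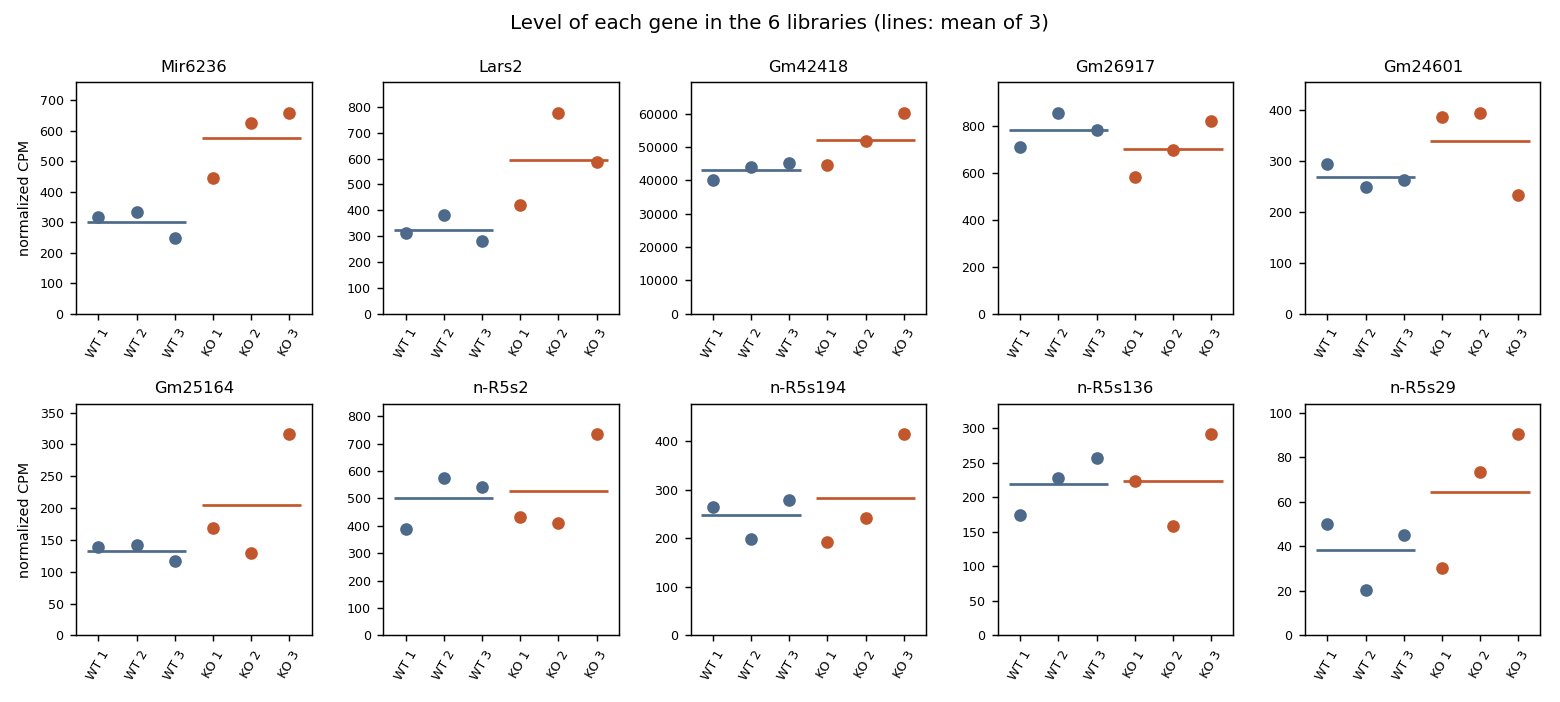
Normalized CPM (vertical axes, each from 0) of the 10 genes in WT libraries 1 to 3 (blue) and miR-181a/b-1-/- libraries 1 to 3 (KO, orange), with lines at the mean of 3. All orange points lie above all blue points for Mir6236 and Lars2, and KO 3 is the highest point for n-R5s2, n-R5s194, n-R5s136, n-R5s29 and Gm25164.

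Of the 10 genes, 9 had a positive log2 fold change, and their median was 0.30, against 49.3% positive and a median of -0.0040 over all 1391 genes. These values come from the same contrast with which the genes were chosen. At an adjusted p under 0.05 in edgeR's quasi-likelihood test, 0% of the genes tested were called, and 35 were higher and 37 lower in miR-181a/b-1-/- samples at an unadjusted p under 0.05 (13 and 11 in DESeq2, which also called 0 after adjustment).

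**Figure D3:**
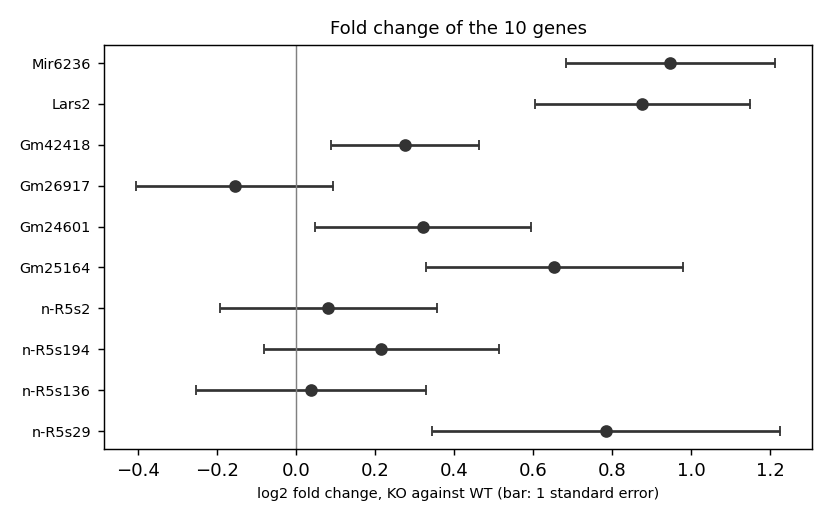
Log2 fold change of miR-181a/b-1-/- (KO) against WT samples (horizontal axis) for each of the 10 genes, with bars of 1 SE from edgeR. Mir6236 (0.95) and Lars2 (0.88) lie farthest to the right with SE under 0.3, while n-R5s2 and n-R5s136 sit at 0.08 and 0.04.

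Whether Mir6236 moves with the rRNA loci was asked library by library, with log2 normalized CPM over the 6 libraries. All measures are shares of the same libraries, and the difference between genotypes, known when the genes were chosen, enters every correlation over 6 libraries, so these are given without a p. Mir6236 and the summed 6 rRNA genes had a Pearson r of 0.533 and a Spearman rho of 0.257. Without miR-181a/b-1-/- libraries 2 and 3, the farthest from the median of Mir6236, r was -0.239, and without library 3 alone it was -0.181. The r of the sum was thus positive only with miR-181a/b-1-/- library 3 included. Taken singly over the 6 libraries, the rRNA genes had an r from -0.070, for n-R5s136, to 0.649, for Gm25164, and that of Gm24601, whose lowest value was in library 3, was 0.296.

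With the sum of Lars2, Gm42418 and Gm26917, which is nearly all Gm42418, r was 0.802 and rho 0.657. Without both miR-181a/b-1-/- libraries 2 and 3, the extremes of Mir6236, r over the other 4 libraries was -0.035. It was 0.783 without library 2 alone and 0.697 without library 3 alone. Every r without both libraries was computed with the TMM factors only, and its dependence on the scaling was not tested. Lars2 on its own had an r of 0.946 and a rho of 0.943. Without the same 2 libraries r was 0.936. Under 3 other scalings, on the linear scale and with each library left out, r with Lars2 ranged from 0.913 to 0.980.

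Deviations from the genotype means remove the difference between genotypes. In all, 11 relations were computed. For the deviations, r with Mir6236 was 0.823 for Lars2 (exact permutation within genotype, p = 0.139), 0.549 for Gm42418 (p = 0.417), 0.691 for Gm26917 (p = 0.250), 0.564 for the sum of these 3 genes (p = 0.417) and 0.303 for the summed rRNA genes (p = 0.778). Single rRNA genes ranged from -0.428 for Gm24601 and -0.167 for n-R5s136 to 0.409 for Gm25164 (exact permutation p from 0.583 to 0.889). The Benjamini-Hochberg adjusted p over the 11 relations was 0.815 for Lars2 (exact permutation within genotype). None passed 0.05, and the smallest p that 36 permutations allow is 0.0278. In normalized CPM, Mir6236 and Lars2 had the same order of libraries within WT, whereas libraries 2 and 3 changed places within miR-181a/b-1-/- samples. With library size alone, both genes were highest in miR-181a/b-1-/- library 2.

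**Figure D4:**
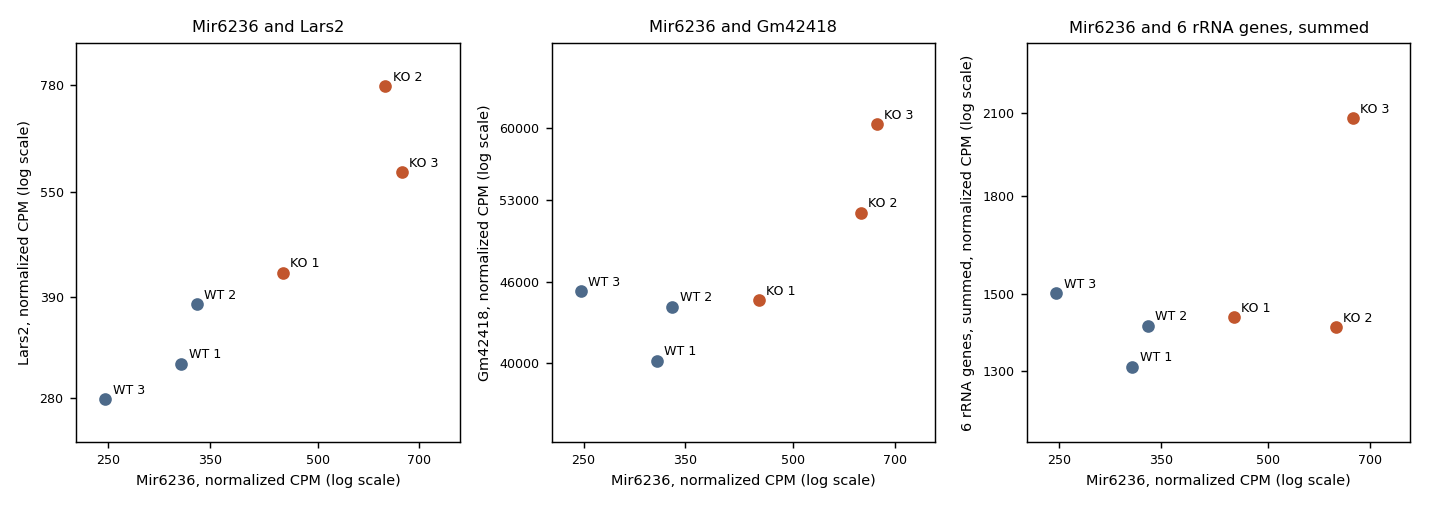
Normalized CPM of Mir6236 (horizontal axes) against that of Lars2, Gm42418 and the summed 6 rRNA genes (vertical axes), all on log scales, 1 point per library (blue WT, orange miR-181a/b-1-/-, labelled KO). Points rise together for Lars2 (r = 0.946), while KO 3 alone stands above the others for the summed rRNA genes.

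Ratios of raw counts within a library do not depend on the normalization. Mir6236 had 7.93, 7.61 and 5.47 counts per 1000 counts of Gm42418 in WT and 10.007, 12.1 and 10.9 in miR-181a/b-1-/- libraries. Lars2 had 7.81, 8.65 and 6.17 in WT and 9.47, 15.003 and 9.72 in miR-181a/b-1-/- libraries. Relative to Gm42418, both were thus higher in every miR-181a/b-1-/- library. Gm26917 went the other way, with 17.7, 19.5 and 17.3 per 1000 in WT and 13.1, 13.5 and 13.7 in miR-181a/b-1-/- libraries. The genes were chosen with their differences between genotypes known. How often ratios of other genes to Gm42418 separate the genotypes in this way was not computed. Between Mir6236 and Lars2 the ratio was 0.928 ± 0.0765 in WT and 0.996 ± 0.169 in miR-181a/b-1-/- samples (SD, n = 3), a difference smaller than the spread between replicates.

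**Figure D5:**
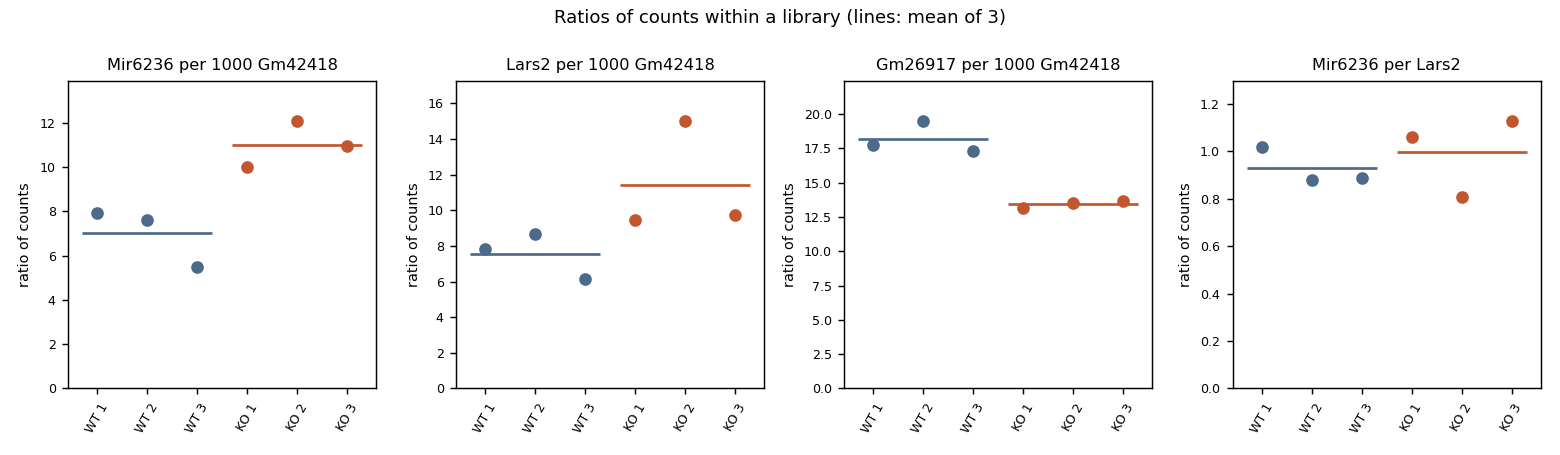
Ratios of raw counts within each library (vertical axes, each from 0) for WT (blue) and miR-181a/b-1-/- (KO, orange) libraries, with lines at the mean of 3. Mir6236 and Lars2 per 1000 counts of Gm42418 are higher in all KO libraries, Gm26917 is lower in all of them, and the ratio of Mir6236 to Lars2 overlaps.

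Ranked by Pearson r with Mir6236 over the 6 libraries, Lars2 was the first of the 1388 other genes with counts in every library. Wrap73 (0.936), Pkig, an inhibitor of protein kinase A (0.930), St8sia4, a polysialyltransferase (0.924), and Akap8, an anchor of protein kinase A (0.920), came next. The median r was -0.0054. Log2 fold changes of Wrap73, Pkig, St8sia4 and Akap8 were 1.18, 1.12, 0.43 and 0.47. This r includes the difference between genotypes with which Mir6236 and Lars2 were chosen. Genes were not ranked on deviations from the genotype means. Gm15564, an antisense gene from the list of other loci known to collect rRNA reads, was the sixth (0.907). It had 17, 22 and 19 counts in WT and 25, 36 and 37 in miR-181a/b-1-/- samples, so its groups did not overlap either (log2 fold change 0.84, SE 0.30). The ranks of the other genes of the 10 ran from 31, for Gm42418, to 844, for Gm26917.

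Lars2 and Gm15564 shared sequence. A stretch of 72 bases was the same in both apart from 1 base, in runs of 52 and 19 bases. In Lars2 it lies at chr9:123462048-123462119, in exon 21 of 21, within the 3′ UTR. The last 30 bases of the stretch are shown from Gm15564, with bases identical to Lars2 in capitals.

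Gm15564: GTGAGCTGGGtTTAGACCGTCGTGAGACAG

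Letters of this stretch are known from 28S rRNA, which was not compared here, and Mir6236 held none of its 41 words of 16 bases. On the same strand, words of the stretch also occurred in AA474408, Arhgap6 and Gucy2g, 3 genes that were named after their values were seen. AA474408 had 5, 12 and 8 counts in WT and 6, 18 and 40 in miR-181a/b-1-/- libraries, with overlapping groups and an r of 0.809 with Mir6236. Arhgap6 had 1 count in all and Gucy2g 0.

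Of the 13 listed loci, 9 were among the identifiers under their listed symbol and 2 of these had any count. Rn18s-rs5, which RefSeq gives as the name of Gm42418, was counted as missing. The second, Gm23935, had 126, 84 and 111 counts in WT and 84, 98 and 81 in miR-181a/b-1-/- samples (log2 fold change -0.17, SE 0.27). Of the 348 other rRNA genes, 65 had a count, 779 in all against 1869 for the 6 described here. Their sum was also highest in miR-181a/b-1-/- library 3, at 923 normalized CPM against 524 to 671 in the other libraries. Only n-R5s33 and n-R5s115 of them passed the filter, with log2 fold changes of 0.18 (SE 0.38) and 0.43 (SE 0.37).

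The rRNAs of the mitochondrial ribosome come from another genome and another transcript. mt-Rnr2 had 114162 normalized CPM on average in miR-181a/b-1-/- samples and 116404 in WT, and mt-Rnr1 64106 and 66405 (log2 fold changes -0.03 and -0.05). Of 13 entries for other noncoding RNAs, 6 passed the filter, 3 with a positive and 3 with a negative fold change and none called. Among them, miR-181a/b-1-/- library 3 was the highest library for Rn7sk, the RNA that holds back the elongation factor P-TEFb, at 32145 normalized CPM against 15105 to 26885 in the others. It was also the highest for Snord118 (the U8 snoRNA of large-subunit processing), Rpph1 (the RNA of RNase P) and Snord13. The 2 mitochondrial tRNAs that passed were highest in WT libraries, mt-Tl1 in library 1 (294 normalized CPM against 226 in miR-181a/b-1-/- library 3) and mt-Tv in library 2 (117 against 77.9). Whether these RNAs and the 5S genes are high in miR-181a/b-1-/- library 3 for the same reason was not tested.

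HTSeq sets reads that match several copies of a repeated gene, such as 5S, apart from the gene counts. The share not aligned uniquely was 44.2%, 45.9% and 41.7% in WT and 42.4%, 44.8% and 46.2% in miR-181a/b-1-/- samples, a difference of 0.517 percentage points (exact two-sided permutation p = 0.7). The share of all records with no gene differed by 1.54 points (exact permutation p = 0.4). Ambiguous records, which overlapped more than a single gene, were 22.9% ± 1.07 in WT and 21.4% ± 1.12 in miR-181a/b-1-/- libraries (SD, n = 3, exact permutation p = 0.2). Records that aligned outside any gene were 9.71% ± 0.626 in WT and 12.3% ± 1.36 in miR-181a/b-1-/- libraries (SD, n = 3). All 3 miR-181a/b-1-/- libraries were higher in this share, and the exact permutation p of 0.1 is the smallest that 3 against 3 allows. Mir6236 and Lars2 were higher in the same 3 libraries, and the part of these records in their levels was not tested.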

How the data were processed

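The authors deposited raw counts per gene, made with HTSeq from STAR alignments of SMARTer smRNA-Seq libraries. Before alignment, Flexbar had cut off adapters and Bowtie 2 had served to take out reads matching rRNA. The submitters' processing notes name GRCm38.p6; the rRNA sequences used for removal, the strand setting and the annotation release were not given in the sources used here. The signal columns of the deposited miRNA table (counts divided by 1 size factor per sample) only served to check the counts, and the fold changes and p-values in that table were not used. The 10 genes and the lists were chosen with earlier results of these data known.

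Of 54547 identifiers, 53706 matched GENCODE vM21 without their version. Records given to no gene stayed out of library sizes. Genes with at least 10 counts in at least 3 libraries (1391) were normalized with TMM and fitted with edgeR 4.0.16 (quasi-likelihood, genotype only) in R 4.3.3 and p-values were adjusted after Benjamini and Hochberg; the SE was taken from the fold change and F. DESeq2 1.42.0 was an alternative. The fit was tested on simulated data for the 1391 genes, with 200 changed: it recovered 41 of 100 changed 2-fold and 96 of 100 changed 4-fold, with 6 false calls. Simulated counts had the same dispersion for every gene, so recovery in the real libraries can differ. Correlations of deviations from the genotype means, and shares, were tested by exact two-sided permutation. Correlations over all 6 libraries had been planned with a p, which is not given because the genes were chosen on the genotype difference. A permutation p is the share of rearrangements at least as extreme as that observed, and all p-values rest on these 6 samples only. Sequences came from GENCODE vM21 transcripts and RefSeq; some sequences and marker genes are not reported here. Genes named were the 10, listed genes passing the filter, genes overlapping the 10, and the 5 most correlated with Mir6236; exceptions are stated. Other scalings, filters, scales, word lengths, a replicate block and each library left out were tried.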

Additional observations from a re-analysis of the deposited data

How the results depend on the processing

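No gene was called higher or lower over all genes under 3 other scalings, with 10 counts required in every library, with the replicate block or in DESeq2. Leaving out 1 library gave 0 to 5 genes higher and 0 to 1 lower, namely 5 and 0 without miR-181a/b-1-/- library 1 and 3 and 1 without library 3. Without the filter, 7 were higher and 1 lower, and at an unadjusted p under 0.05 the counts were 35 and 37. None of these alternatives changed which direction Mir6236, Lars2, Gm42418, Gm26917, Gm24601, Gm25164 or n-R5s29 took: log2 fold changes over all of them ranged from 0.83 to 1.09 for Mir6236 (1.37 over miRNA features alone), from 0.65 to 1.06 for Lars2 and from -0.29 to -0.05 for Gm26917. n-R5s2 and n-R5s136 turned negative without WT library 1 or without miR-181a/b-1-/- library 3, and n-R5s194 without the latter only. Values ranged from 0.16 to 0.37 for Gm42418, from 0.19 to 0.54 for Gm24601, from 0.17 to 0.90 for Gm25164 and from 0.43 to 1.07 for n-R5s29, and the lowest was without miR-181a/b-1-/- library 3 except for Gm24601 (without library 2). n-R5s29 had no value with 10 counts required in every library.

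The r of Mir6236 with the summed rRNA genes ranged from -0.181 to 0.761 when 1 library was left out, and was negative only without miR-181a/b-1-/- library 3. With the sum of Lars2, Gm42418 and Gm26917, r ranged from 0.697 to 0.920 when 1 library was left out. It was highest without WT library 3 (0.920), and was 0.825 with DESeq2 size factors and 0.859 on the linear scale. All these values include the difference between genotypes with which the genes were chosen, and the cause of the spread was not tested. The alternatives for Lars2 alone were added after seeing the data. The difference in records not aligned uniquely ranged from -0.574 to 1.55 percentage points when 1 library was left out, and was negative without WT library 3 (-0.574) and without miR-181a/b-1-/- library 3 (-0.353). With records outside any gene left out of the denominator it was 2.04 points (exact permutation p = 0.4). The difference in records with no gene ranged from 0.427 points, without miR-181a/b-1-/- library 3, to 2.73, without library 1. The count of rRNA genes highest in miR-181a/b-1-/- library 3 by library size alone was added after seeing the data.

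The labels do not say that equal replicate numbers mark a shared batch. Deviations from the genotype means correlated at 0.231, 0.0812 and 0.182 between samples of equal number, and every sample correlated best with its own number, a hint from the data only. With the replicate block, 0 genes were called (48 higher and 40 lower at an unadjusted p under 0.05). Counts of 4 to 22 a library for n-R5s29 limit what can be said of it.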
